A study of Homo sapiens with 6 samples.

Results

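The genes described here are 50 named protein-coding genes of DNA replication. They encode the proteins that mark, license and fire replication origins and those that build and protect the fork. They were taken by gene symbol from a table of messenger RNA (mRNA) levels with 19912 genes, and all 50 were found there. PANC-1 is an established human pancreatic carcinoma line. The study used PANC-1 cells with the labelled phenotype gemcitabine resistance. Gemcitabine is a deoxycytidine analogue that is built into DNA and stalls its synthesis. The comparison was between 3 libraries labelled with the treatment ctrl (titled Panc1GR-NC, the controls) and 3 labelled shSRSF3 (titled Panc1GR-SRSF3KD, the labelled knockdown). SRSF3 is a serine and arginine rich splicing factor. All 6 libraries carry the resistance phenotype, so no parental line enters the comparison. The labels give no clone, dose, time of gemcitabine exposure or time after the knockdown, and nothing in them says whether the 3 libraries of a group came from separate cultures. The p-values therefore measure the spread between these libraries, which may be technical.

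The SRSF3 transcript itself was not lower in the labelled knockdown. It stood at 37.0, 39.6 and 39.2 FPKM (fragments per kilobase of transcript, scaled to library depth) in control libraries 1 to 3. In the labelled knockdown libraries 1 to 3 it stood at 36.9, 37.1 and 38.6 FPKM. The ranges overlapped, and the difference on the log2(FPKM + 1) scale was -0.04 with a standard error (SE) of 0.05 (limma adjusted p = 0.612). The knockdown is therefore named by its label throughout. Defining genes of the cell type were checked as well. KRT8, KRT18, KRT19 and EPCAM, of epithelial carcinoma cells, averaged 1613, 1391, 424 and 176 FPKM in the controls. KRT7 and VIM, which PANC-1 is known to express, were near 0, at 0.187 and 0.0101 FPKM, and CDKN2A, which is known to be deleted in PANC-1, stood at 0.0179 FPKM. PTPRC of blood cells and INS of beta cells were at 0 in all 6 libraries. Of the other genes checked for other cell types, ACTA2 averaged 3.38 FPKM in the controls. COL1A1, PRSS1, PECAM1, COL3A1 and CD3E averaged 0.334, 0.284, 0.172, 0.0251 and 0 FPKM there. ZEB1, checked as a mesenchymal trait known of PANC-1, averaged 0.167 FPKM in the controls. The deposited values fell on whole fragments for 14776 of 14803 rows above 0 in at least 3 libraries (99.8%, within 0.003 of a fragment). They gave 24558238 to 27351642 counted fragments per library. The labelled knockdown libraries differed more among themselves than the controls did: the mean chi-square per gene between a pair was 11.2 to 33.3 among them and 3.31 to 6.95 among the controls. Over the replication genes alone it was 4.87 to 12.1 among the labelled knockdown libraries and 2.74 to 5.42 among the controls, so these ranges overlapped.

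Replication starts at origins, where the origin recognition complex (ORC) recruits CDC6 and CDT1. Together they load the ring of MCM2 to MCM7 around DNA, a step called licensing. In S phase the CDC7 kinase and several firing factors add CDC45 and the GINS complex to the ring, which makes the active helicase. Polymerase alpha with primase then lays down primers, the clamp loader RFC sets the sliding clamp PCNA on them, and polymerases delta and epsilon extend them. RPA coats the single strands behind the helicase, while CLSPN, TIMELESS and TIPIN stabilise the fork and pass stress signals to the checkpoint. Many of these genes are textbook targets of the E2F transcription factors, and many cell-cycle promoters hold CCAAT boxes bound by NF-Y.

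The 250 bases upstream of the annotated start are shown for the called genes CLSPN, CDC6 and ORC6. They were chosen because they hold more than 1 CCAAT box each and no exact match to an E2F octamer. The same window of the uncalled gene MCM6 is shown because it holds the most octamers among the replication genes. Sequences are RefSeq, build GRCh38.p14, 5′ to 3′ on the strand of the gene. Capitals mark a CCAAT box on either strand (CCAAT or ATTGG) or an E2F octamer on either strand. The windows are CLSPN on the minus strand at chr1:35769979-35770228, CDC6 on the plus strand at chr17:40287629-40287878, ORC6 on the plus strand at chr16:46689409-46689658 and MCM6 on the minus strand at chr2:135876444-135876693.
CLSPN: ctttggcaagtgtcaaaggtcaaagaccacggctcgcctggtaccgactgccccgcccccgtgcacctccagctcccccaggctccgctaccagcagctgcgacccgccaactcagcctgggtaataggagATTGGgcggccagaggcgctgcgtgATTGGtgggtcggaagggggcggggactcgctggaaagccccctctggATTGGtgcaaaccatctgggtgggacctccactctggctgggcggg
CDC6: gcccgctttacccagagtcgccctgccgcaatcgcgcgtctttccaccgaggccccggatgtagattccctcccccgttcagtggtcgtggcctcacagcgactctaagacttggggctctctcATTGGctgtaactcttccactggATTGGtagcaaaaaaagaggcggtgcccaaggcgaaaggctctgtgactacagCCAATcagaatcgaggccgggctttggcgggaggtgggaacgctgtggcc
ORC6: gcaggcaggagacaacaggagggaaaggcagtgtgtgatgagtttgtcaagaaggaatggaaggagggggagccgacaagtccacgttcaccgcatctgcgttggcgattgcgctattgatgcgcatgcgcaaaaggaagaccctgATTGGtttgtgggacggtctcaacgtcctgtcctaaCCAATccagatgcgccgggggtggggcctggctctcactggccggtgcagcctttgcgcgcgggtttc
MCM6: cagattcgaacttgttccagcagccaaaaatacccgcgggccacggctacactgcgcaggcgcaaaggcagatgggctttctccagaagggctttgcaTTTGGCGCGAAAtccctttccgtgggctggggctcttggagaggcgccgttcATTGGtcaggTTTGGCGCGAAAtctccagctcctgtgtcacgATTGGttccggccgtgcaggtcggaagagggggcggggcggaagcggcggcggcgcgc

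The octamers searched were TTTCCCGC, TTTCGCGC, TTTGCCGC and TTTGGCGC, on both strands, and none overlapped a CCAAT box. Octamers can overlap each other, as in MCM6, where each of the 2 capital stretches without ATTGG holds 1 octamer on each strand. An octamer was present in 12 of the 43 replication genes with a window in the table, which is 27.9%, beside 2.79% of all 27305 windows and 4.61% of those of the tested genes. The 12 were ORC3, MCM3, MCM6, MCM7, GINS2, LIG1, POLE, PCNA, POLA1, POLA2, CDT1 and RFC3. None of the 7 called genes with a window held one, against 12 of the 36 uncalled genes (33.3%). Only exact matches were counted: the CDC6 window holds tttggcgg, which differs from TTTGGCGC in its last base. The counts therefore do not show that the called genes lack E2F sites, and the difference between called and uncalled genes was not tested. A CCAAT box was present in 24 of 43 replication genes (55.8%), in 5 of the 7 called ones (71.4%) and in 19 of the 36 uncalled ones (52.8%). It was present in 33.0% of all windows, in 34.9% of those of the tested genes and in 45.4% of those of all genes called lower. The CCAAT boxes of CLSPN began 119, 94 and 46 bases before the start, those of CDC6 126, 103 and 50 bases before it, and those of ORC6 104 and 68 bases before it. These matches are descriptions of letters in a window. No binding was measured. RPA3, DNA2, POLD3, MCM5, GINS4, MCM4 and RPA2 were not matched.

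Within the replication set, 8 genes fell in the labelled knockdown and none rose. Each of the 12 role groups below was fitted in the same model over all 10823 genes that averaged 0.5 FPKM or more over the 6 libraries, and a gene is called where limma's Benjamini-Hochberg adjusted p over all of them is under 0.05. All 50 replication genes passed that level. The 8 called genes were CLSPN, RPA3, CDC6, ORC6, GINS1, WDHD1, POLE2 and RFC1, each of a different role group. Among all genes tested 5.91% were called lower and 10.9% higher, so the 8 of 50 stand beside 5.91% and the 0 of 50 beside 10.9%. Over all genes that is 640 lower and 1179 higher (64.8% of calls higher), against 808 and 817 (50.3% higher) under quantile normalization. At an unadjusted limma p under 0.05, 14 replication genes were lower (12.8% of all genes) and 4 higher (20.3% of all genes), and by voom on the recovered fragments 7 were called lower and 0 higher. The median change of the 50 was -0.03 on the log2(FPKM + 1) scale, against 0.02 over all genes tested, with 30 below 0 and 20 above. The groups did not overlap for 10 genes lower in the labelled knockdown (15.3% of all genes) and for 6 higher (22.6% of all genes). In bulk RNA, fewer cells in a cell-cycle phase and less RNA per cell cannot be told apart.

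**Figure D1:**
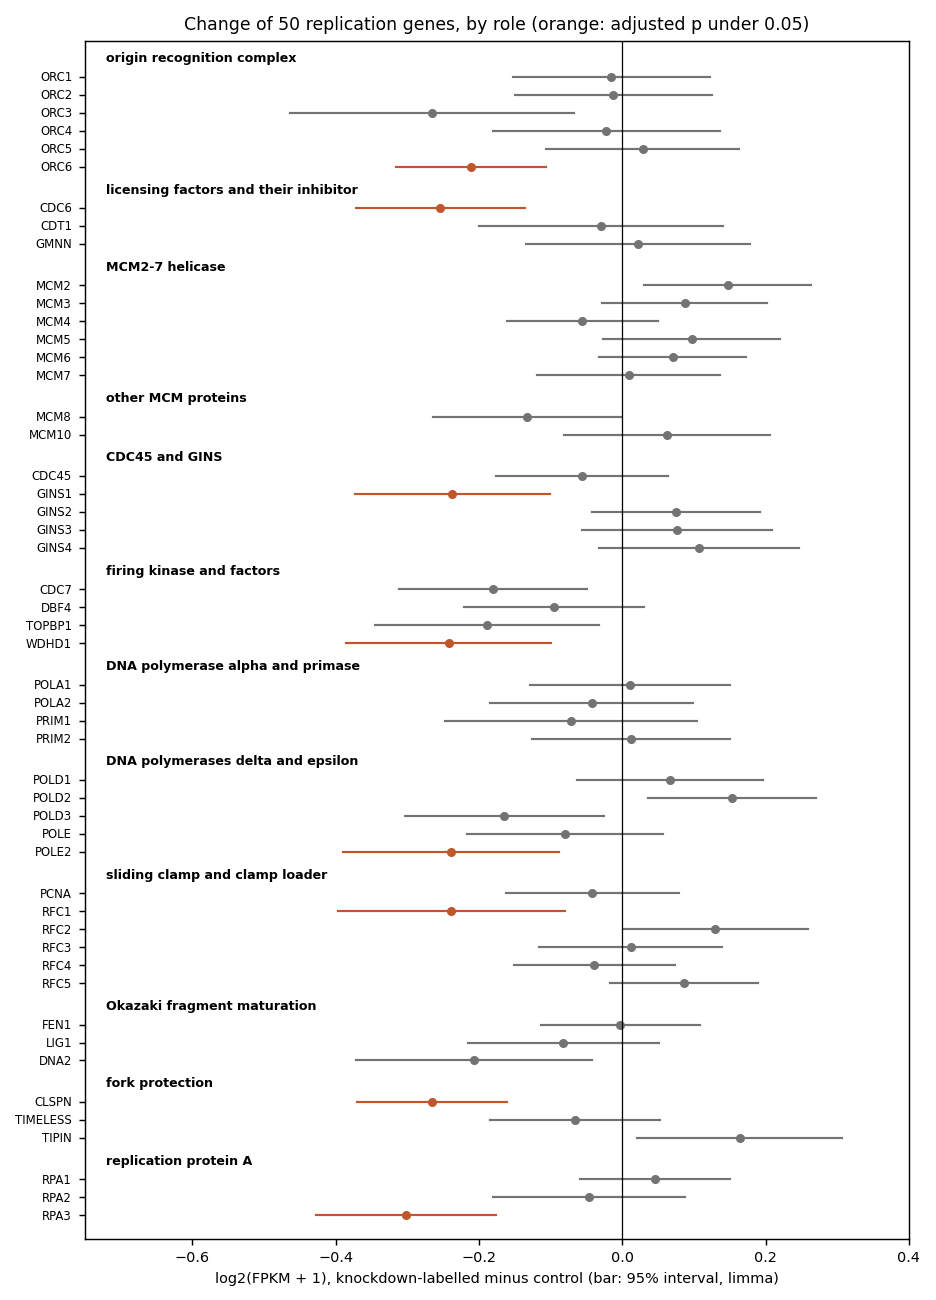
Difference of the labelled knockdown from control for each of the 50 replication genes on the log2(FPKM + 1) scale (x axis), by role (rows). Points are limma estimates, bars their 95% intervals, and orange marks an adjusted p under 0.05; the 8 orange points all lie below 0, each in a different role group.

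The summed level of the 50 genes was 1275 ± 12.5 FPKM (SD, n = 3) in the controls and 1268 ± 27.9 FPKM in the labelled knockdown. The 8 called genes made up 112.8 ± 2.52 FPKM of that sum in the controls and 93.8 ± 0.621 FPKM in the labelled knockdown, a description that follows from their calls. On the FPKM scale, the total of the 50 differed by less than the spread between libraries. The FPKM of the whole table summed to 275359 to 285701 in the controls and 287148 to 336887 in the labelled knockdown. As a share of that sum, the 50 genes were lower in every labelled knockdown library than in any control. The changes were modest: the called genes' means were 14.4% to 21.0% lower. Of the 8 called genes, all 8 were lower with each of the 6 libraries left out in turn, but not all were called then. CLSPN and RPA3 were called in every alternative. The number called lower was 4, 2 and 2 without control 1, 2 or 3, and 6, 4 and 12 without labelled knockdown 1, 2 or 3. Calls over all genes moved as well, from 640 lower with all libraries to 239 without control 2 and 969 without labelled knockdown 3. Without any minimum level 4 were called, beside 365 lower over all genes. Some uncalled genes passed in some of the alternatives. CDC7 was called lower with a minimum of 5 FPKM and POLD3 without labelled knockdown 1. Without labelled knockdown 3, ORC3, CDC7, TOPBP1 and DNA2 were called lower, and MCM2 and POLD2 higher. With a block by replicate number, ORC3, CDC7, TOPBP1 and DNA2 were again called lower and POLD2 higher. MCM4 was called lower under quantile normalization.

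At the origin, ORC binds DNA and holds the site for licensing. ORC6, its smallest subunit, was the only called member of the 6. ORC6 stood at 19.0, 18.0 and 18.3 FPKM in the controls and at 15.6, 16.0 and 15.9 FPKM in the labelled knockdown. All labelled knockdown libraries lay below all controls. The log2 change of ORC6 was -0.21 (SE 0.05, limma adjusted p = 0.0151). It was past the threshold only with all 3 controls (limma adjusted p = 0.0606, 0.0588 and 0.0596 without control 1, 2 or 3). ORC3, a subunit of the complex core, had a difference as large, -0.27 on the log2 scale, but its libraries spread more: 5.07, 4.40 and 5.34 FPKM in the controls and 3.53, 3.70 and 4.61 FPKM in the labelled knockdown. Its groups overlapped and it was not called (SE 0.09, limma adjusted p = 0.0663). ORC1, the ATPase subunit that is made and destroyed within each cycle, was the most abundant at 24.2 ± 0.815 FPKM in the controls and 24.0 ± 1.95 FPKM in the labelled knockdown. ORC2, ORC4 and ORC5 had differences of -0.01, -0.02 and 0.03 on the log2 scale and overlapped between groups. The ORC subunits did not share a level: ORC1 was 7.12-fold above ORC4 in FPKM, which is per length. ORC1 had 1853 to 2171 fragments per library over a length of 3157 bases, and ORC4 690 to 904 over 8915 bases. These lengths were recovered from the FPKM values. Part of the FPKM ratio therefore comes from length.

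CDC6, the ATPase that joins ORC to load the helicase, fell. Its levels were 31.5, 33.6 and 33.5 FPKM in the controls and 28.7, 27.4 and 26.1 FPKM in the labelled knockdown. The labelled knockdown libraries were all below the lowest control. The log2 change was -0.25 (SE 0.05, limma adjusted p = 0.0115), and CDC6 was not called without control 2 (0.0652) or without control 3 (0.0562). CDT1, the partner that brings MCM2-7 to the origin, gave 37.3, 36.8 and 34.7 FPKM in the controls and 40.3, 35.0 and 31.6 FPKM in the labelled knockdown. CDT1 had the highest and the lowest value of all 6 libraries within the labelled knockdown, and its difference was -0.03 with a 95% interval from -0.20 to 0.14. GMNN, the inhibitor of CDT1, averaged 7.95 ± 0.468 FPKM and 8.10 ± 0.750 FPKM.

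**Figure D2:**
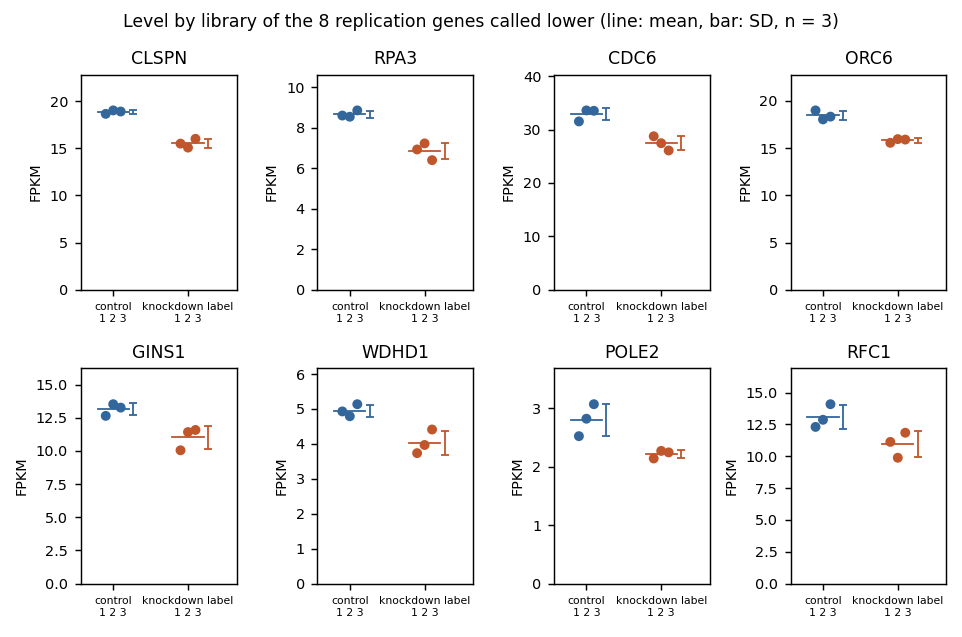
FPKM (y axis, from 0) of the 8 called genes in control libraries 1 to 3 (blue) and labelled knockdown libraries 1 to 3 (orange), with the group mean as a line and the SD as a bar (n = 3). In each panel all 3 orange points lie below all 3 blue points, with POLE2 at the lowest level, 2.14 to 3.07 FPKM.

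The helicase ring itself was not called in any subunit. MCM2 had the smallest p of the 6, with 64.1, 61.1 and 59.4 FPKM in the controls and 67.5, 71.4 and 65.9 FPKM in the labelled knockdown. All labelled knockdown libraries were above all controls, but the difference of 0.15 on the log2 scale (SE 0.05) did not pass (limma adjusted p = 0.0799). It did pass without labelled knockdown 3 (limma adjusted p = 0.0394). MCM7, the most abundant ring subunit, was at 110.2, 109.5 and 105.7 FPKM in the controls and 109.4, 116.2 and 102.2 FPKM in the labelled knockdown. The MCM7 difference was 0.01 (95% interval -0.12 to 0.14). MCM3, MCM5 and MCM6 lay 0.09, 0.10 and 0.07 above 0 on the log2 scale and MCM4 at -0.06, so 5 of 6 differences were above 0 (median 0.08). Under quantile normalization, which gives all libraries one distribution, 4 of 6 were below 0 (median -0.01): MCM3, MCM6 and MCM7 turned to -0.02, -0.01 and -0.11 and MCM4 was called lower (limma adjusted p = 0.0176). Levels of the ring subunits ran from 31.7 FPKM for MCM5 to 109 FPKM for MCM7, a 3.43-fold range. Counted fragments ranked them otherwise: MCM6 had the fewest, 1704 to 2069 per library, beside 5624 to 6581 for MCM5. MCM8, a related helicase that acts in recombination, differed by -0.13 (limma adjusted p = 0.147). MCM10, which helps the assembled helicase to start, differed by 0.06 (limma adjusted p = 0.534), and both overlapped between groups.

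GINS1 was the called member among CDC45 and the 4 GINS subunits, which clasp the ring to make the active helicase. GINS1 stood at 12.6, 13.5 and 13.3 FPKM in the controls and at 10.05, 11.4 and 11.6 FPKM in the labelled knockdown. The groups did not overlap, with labelled knockdown 1 the lowest. The log2 change was -0.24 (SE 0.06, limma adjusted p = 0.0267). GINS1 was not called without control 1, 2 or 3 (limma adjusted p = 0.05005, 0.113 and 0.0955), without labelled knockdown 2 (0.0531) or without the minimum level (0.0698). The other GINS subunits of this 4-part complex lay on the other side of 0: GINS2, GINS3 and GINS4 differed by 0.08, 0.08 and 0.11 on the log2 scale, with limma adjusted p = 0.348, 0.401 and 0.260. CDC45, the most abundant of the 5, was at 15.7 ± 0.617 FPKM and 15.1 ± 0.737 FPKM and overlapped. That GINS1 and its partner subunits differed from each other was not tested.

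The 4 genes of the firing kinase and firing factors all lay below 0, with a median of -0.18, and 1 was called. WDHD1, which couples polymerase alpha to the helicase, was at 4.93, 4.79 and 5.14 FPKM in the controls and at 3.74, 3.97 and 4.41 FPKM in the labelled knockdown. The groups did not overlap. Its log2 change was -0.24 (SE 0.06, limma adjusted p = 0.0298). WDHD1 was not called without control 1, 2 or 3 (limma adjusted p = 0.0762, 0.0768 and 0.121), without labelled knockdown 1 or 2 (0.0674 and 0.0916) or without the minimum level (0.0792). CDC7, the kinase that phosphorylates the MCM ring, had 7.88, 8.15 and 8.88 FPKM in the controls and 6.94, 7.18 and 7.50 FPKM in the labelled knockdown. Its groups did not overlap, but the difference of -0.18 was not called (SE 0.06, limma adjusted p = 0.0614). DBF4, the activating subunit of CDC7, differed by -0.10 (limma adjusted p = 0.267). TOPBP1, the scaffold that brings CDC45 to the ring and activates the ATR kinase, had the highest level of the 4 and differed by -0.19. Its levels of 12.5, 12.9 and 13.95 FPKM in the controls and 10.8, 10.7 and 12.7 FPKM in the labelled knockdown overlapped (limma adjusted p = 0.0917).

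**Figure D3:**
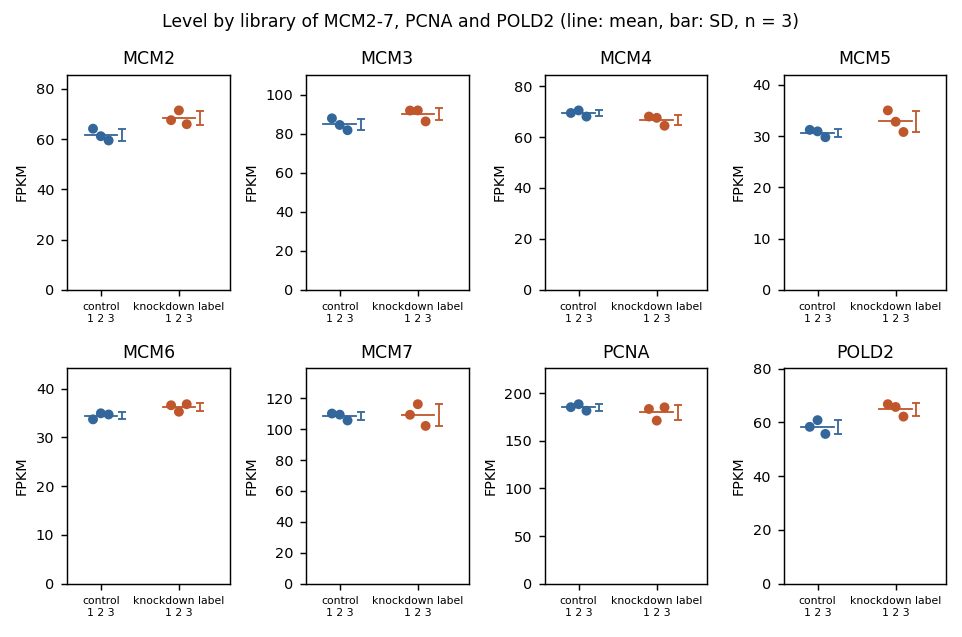
FPKM (y axis, from 0) of the 6 ring subunits MCM2 to MCM7, of the clamp PCNA and of POLD2 in control libraries 1 to 3 (blue) and labelled knockdown libraries 1 to 3 (orange), with the group mean as a line and the SD as a bar (n = 3). None was called; MCM2, MCM6 and POLD2 have all orange points above all blue points.

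Polymerase alpha and primase start every new strand, and none of their 4 genes was called. POLA1, POLA2, PRIM1 and PRIM2 differed by 0.01, -0.04, -0.07 and 0.01 on the log2 scale. POLA2 was the most abundant at 15.5 ± 0.542 FPKM in the controls and 15.1 ± 1.29 FPKM in the labelled knockdown. PRIM1, the catalytic primase subunit, had the smallest p of the 4 with limma adjusted p = 0.558, and all 4 overlapped between groups.

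Of the 5 genes of polymerases delta and epsilon, 1 was called, with 3 differences below 0 and 2 above. POLE2, the second subunit of the leading-strand polymerase epsilon, fell from 2.52, 2.82 and 3.07 FPKM in the controls to 2.14, 2.27 and 2.24 FPKM in the labelled knockdown. The groups did not overlap. The log2 change of POLE2 was -0.24 (SE 0.07, limma adjusted p = 0.0374). It was the least abundant of the 50 genes, with 162 to 248 fragments per library, and its call was among the least stable. It was not called without control 2 or 3 (limma adjusted p = 0.121 and 0.164), without labelled knockdown 1 or 2 (0.0755 and 0.0855), without the minimum level (0.0953), under quantile normalization (0.0539) or by voom (0.0672). POLE, the catalytic subunit, differed by -0.08 (limma adjusted p = 0.392). POLD2, an accessory subunit of the lagging-strand polymerase delta, had 58.3, 60.8 and 55.7 FPKM in the controls and 66.8, 65.7 and 62.2 FPKM in the labelled knockdown. All labelled knockdown libraries were above all controls. The POLD2 difference of 0.15 (SE 0.05) was not called (limma adjusted p = 0.0730). Without labelled knockdown 3 it was called higher (limma adjusted p = 0.0296). POLD3, another accessory subunit, had 9.26, 9.03 and 9.19 FPKM in the controls and 8.88, 7.51 and 7.86 FPKM in the labelled knockdown (log2 difference -0.16, limma adjusted p = 0.0959). POLD1, the catalytic subunit of polymerase delta, differed by 0.07 with overlap and turned to -0.01 under quantile normalization. POLD2 stood 24.5-fold above POLE2 in FPKM, the widest range of the 12 role groups.

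RFC1, the large subunit of the clamp loader, was the called member among PCNA and the 5 RFC genes. It had 12.3, 12.9 and 14.1 FPKM in the controls and 11.1, 9.88 and 11.9 FPKM in the labelled knockdown. The groups did not overlap, though labelled knockdown 3 came close to control 1. The log2 change of RFC1 was -0.24 (SE 0.07, limma adjusted p = 0.0450), the closest of the 8 to the threshold. RFC1 was not called without control 1, 2 or 3 (limma adjusted p = 0.0601, 0.112 and 0.177), without labelled knockdown 1 or 2 (0.0599 and 0.149) or without the minimum level (0.118). PCNA, the clamp itself, had the highest level of the 50 genes: 185.5, 188.7 and 181.8 FPKM in the controls and 183.7, 171.4 and 185.4 FPKM in the labelled knockdown. The PCNA groups overlapped, and the difference was -0.04 (95% interval -0.16 to 0.08). Under quantile normalization PCNA differed by -0.15 and was not called (limma adjusted p = 0.0741). The small clamp loader subunits RFC2, RFC3, RFC4 and RFC5 differed by 0.13, 0.01, -0.04 and 0.09 on the log2 scale. RFC2 and RFC5 were higher in every labelled knockdown library than in any control, yet neither was called (limma adjusted p = 0.149 and 0.221). RFC3 turned to -0.01 under quantile normalization.

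Okazaki fragments are trimmed by FEN1 and DNA2 and joined by LIG1, and none of these 3 was called. FEN1, the flap nuclease, was the most abundant at 67.4 ± 1.57 FPKM in the controls and 67.3 ± 2.62 FPKM in the labelled knockdown. Under quantile normalization FEN1 differed by -0.11 on the log2 scale (limma adjusted p = 0.0749). DNA2, a nuclease for long flaps, had 4.34, 5.00 and 5.03 FPKM in the controls and 3.73, 3.87 and 4.46 FPKM in the labelled knockdown. Labelled knockdown 3 lay above control 1, and the difference of -0.21 was not called (SE 0.07, limma adjusted p = 0.0806). LIG1, the ligase, differed by -0.08 (limma adjusted p = 0.366).

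The smallest p of all 50 genes was that of CLSPN (claspin), the mediator between the ATR and CHK1 kinases that also sets fork speed. CLSPN was at 18.6, 19.0 and 18.9 FPKM in the controls and at 15.5, 15.1 and 16.0 FPKM in the labelled knockdown. The gap between the groups was wide beside the spread within each. The log2 change was -0.27 (SE 0.05, limma adjusted p = 0.00603). An antisense gene, CLSPN-AS1, overlaps CLSPN in the RefSeq annotation. No label or header says whether the counting used strand, so reads where the 2 genes overlap cannot be told apart. Overlap here is of whole gene spans, and exons were not compared. Among the other called genes, GINS1 overlaps the non-coding gene LOC105372581, and POLE2, RFC1 and WDHD1 overlap annotated pseudogenes. Uncalled genes such as PCNA also have overlaps or annotated copies. RFC5, ORC3 and MCM7 overlap the opposite-strand coding genes WSB2, AKIRIN2 and AP4M1. These coding genes rose by 0.21, 0.29 and 0.26 on the log2 scale (limma adjusted p = 0.0153, 0.00685 and 0.0284). PRPF38A, ACVR2A, GSE1 and RAB23, which overlap ORC1, ORC4, GINS2 and PRIM2, were not called. TIMELESS, which forms the fork protection complex with TIPIN, was at 31.8 ± 0.758 FPKM and 30.3 ± 1.77 FPKM with overlap (log2 difference -0.07). Under quantile normalization TIMELESS differed by -0.15 and was not called (limma adjusted p = 0.0530). TIPIN lay the other way, with 6.73, 7.10 and 6.90 FPKM in the controls and 8.56, 7.17 and 7.90 FPKM in the labelled knockdown. Labelled knockdown 2 was just above the highest control, and the TIPIN difference of 0.16 was not called (SE 0.06, limma adjusted p = 0.107).

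Of replication protein A, the single-strand binding trimer, RPA3 fell. RPA3, the small subunit, had 8.59, 8.53 and 8.85 FPKM in the controls and 6.92, 7.22 and 6.39 FPKM in the labelled knockdown. All labelled knockdown libraries were below all controls. The log2 change of -0.30 (SE 0.06, limma adjusted p = 0.00753) was the largest of the 50. RPA1, the large DNA-binding subunit, differed by 0.05 and turned to -0.03 under quantile normalization. RPA2, the subunit phosphorylated under replication stress, was the most abundant of the 3 at 36.9 ± 2.23 FPKM and 35.7 ± 2.02 FPKM. RPA3 overlaps the protein-coding gene UMAD1 in the RefSeq annotation, and UMAD1 fell as well, by 0.28 on the log2 scale (limma adjusted p = 0.0357). Without a stated strand, reads where RPA3 and UMAD1 overlap cannot be told apart, and overlap of their exons was not checked. RPA3 also has the annotated copies RPA3P1 and RPA3P2. The RPA3 value is uncertain for these reasons.

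To compare each called gene with a partner in the same library, its FPKM was divided by that of the most abundant other gene of its role group, a comparison chosen after the values were seen. CLSPN over TIMELESS was 0.572, 0.612 and 0.596 in the controls and 0.481, 0.499 and 0.558 in the labelled knockdown. POLE2 over POLD2 was 0.0482 ± 0.00614 and 0.0342 ± 0.00204, RPA3 over RPA2 0.235 ± 0.0146 and 0.192 ± 0.00911, and CDC6 over CDT1 0.908 ± 0.0599 and 0.774 ± 0.0560 (SD, n = 3). For 7 of 8 ratios every labelled knockdown library lay below every control. WDHD1 over TOPBP1 was the exception, with 0.379 ± 0.0144 and 0.355 ± 0.0135 and overlapping libraries. These ratios are a description: each numerator had been called lower and each denominator had not, so the direction follows largely from the calls. For ORC6 over ORC1 the gap was narrow, 0.729 in control 3 and 0.726 in labelled knockdown 3.

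**Figure D4:**
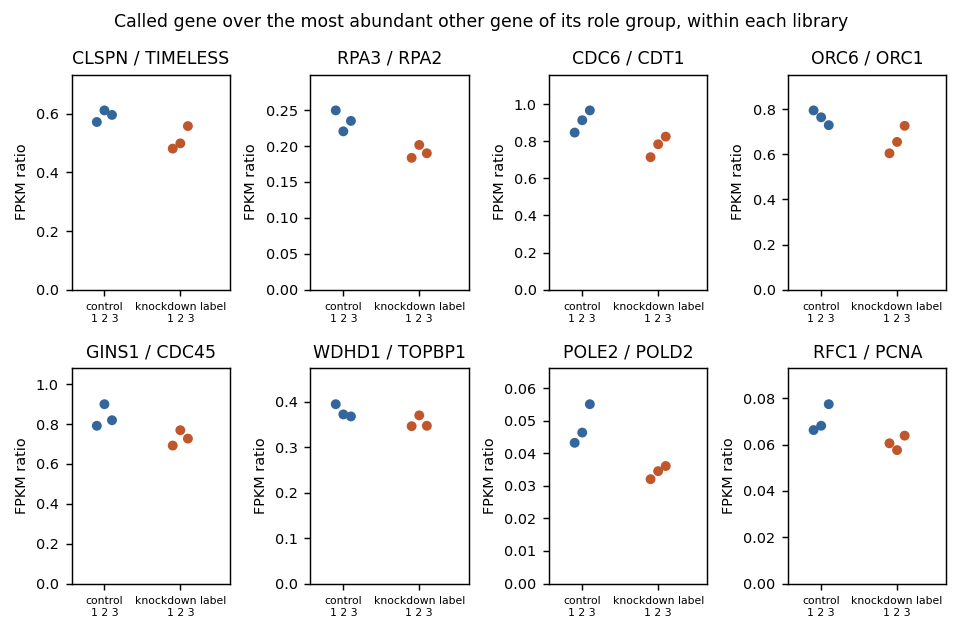
FPKM ratio (y axis, from 0) of each called gene to the most abundant other gene of its role group in control libraries 1 to 3 (blue) and labelled knockdown libraries 1 to 3 (orange). All orange points lie below all blue points for 7 of the 8 ratios, and WDHD1 / TOPBP1 overlaps.

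Level and change were related across genes. Of the 33 replication genes under 20 FPKM, 7 were called lower and the median change was -0.07. Of the 17 at or above 20 FPKM 1, CDC6, was called lower and the median was 0.01. The same split over all tested genes on whole fragments gave 515 called lower of 8496 under 20 FPKM, with a median of 0.00. At or above 20 FPKM it gave 109 called lower of 2303, with a median of 0.10. Spearman's rho of change with level was 0.30 over the 50 genes and 0.28 over 10799 genes. That of change with the length recovered from the FPKM values, which is not an annotated transcript length, was -0.20 in both. These are descriptions across genes that share the same 6 libraries. The part of level and length in the replication genes' changes was not tested. The median coefficient of variation of the 50 genes was 3.64% among controls and 5.76% in the labelled knockdown.

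**Figure D5:**
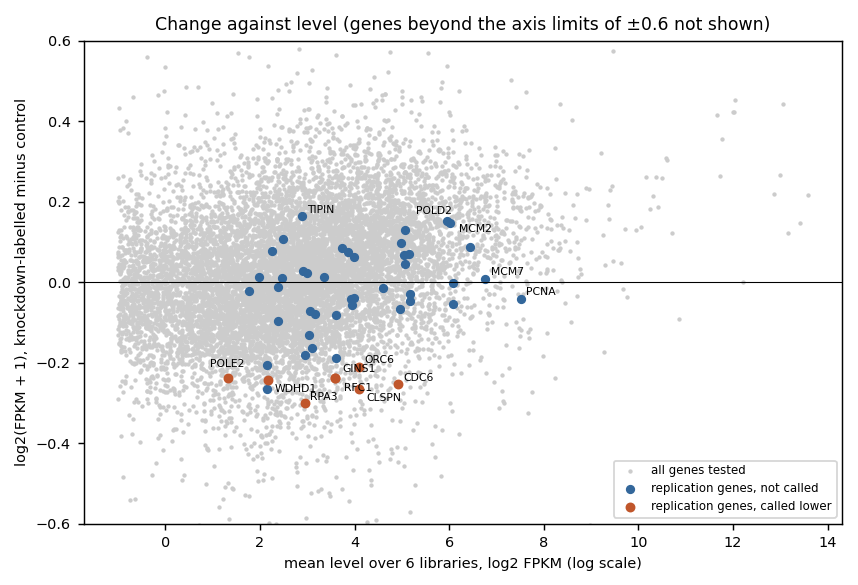
Difference of the labelled knockdown from control on the log2(FPKM + 1) scale (y axis) against mean level over 6 libraries (x axis, log2 FPKM) for all tested genes (grey), uncalled replication genes (blue) and the 8 called ones (orange). 66 tested genes beyond 0.6 in either direction are not drawn; 7 of the 8 orange points lie under 20 FPKM.

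Other genes of replication were counted from a wider list of 36, which covers origin firing, chromatin assembly and fork repair. The list had 2 called lower and 2 called higher, beside 5.91% and 10.9% of all genes tested, with a median of -0.05. TICRR, which delivers TOPBP1 to origins, fell from 8.12 ± 0.246 FPKM to 6.66 ± 0.685 FPKM (SD, n = 3; limma adjusted p = 0.0322). ATAD5, which unloads PCNA, fell by 0.28 on the log2 scale (SE 0.08, limma adjusted p = 0.0329). LRWD1, an ORC-associated protein, rose by 0.33 (SE 0.07, limma adjusted p = 0.0121), and RNASEH2C, a subunit of the RNase that removes ribonucleotides from DNA, rose by 0.18 (SE 0.05, limma adjusted p = 0.0469). Genes of nucleotide supply and E2F control were also mixed, with 2 of 18 tested lower and 3 higher. Over all genes tested the shares were 5.91% lower and 10.9% higher. CCNE1, the cyclin of S phase entry, rose by 0.38, CDC25A, a phosphatase that activates CDK2, by 0.26, and E2F1, the activator of many of the genes above, by 0.23 on the log2 scale (limma adjusted p = 0.00232, 0.0110 and 0.0236). CCNA2, the cyclin of S and G2 phase, fell by 0.32, and RBL1, a retinoblastoma family repressor, by 0.31 (limma adjusted p = 0.00476 and 0.0244).

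Of 20 genes of G2 phase and mitosis, 13 were called lower and none higher, with a median of -0.30. Among all genes tested, 5.91% were called lower and 10.9% higher. This list, like the others, was chosen with earlier results of these data known. NUSAP1, which bundles spindle microtubules, fell by 0.50, TOP2A, which untangles sister chromatids, by 0.57, CENPF, a kinetochore protein, by 0.52, and ESPL1, the protease separase, by 0.43 on the log2 scale. Their limma adjusted p-values were 0.000838, 0.00168, 0.00204 and 0.000906. The median of the 50 replication genes, -0.03, lay nearer to 0 than that of the mitotic list, and the difference between these lists was not tested. A CCAAT box was present in 14 of 17 promoter windows of the mitotic list (82.4%) and an E2F octamer in 1 (5.88%).

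Some genes that can mark handling of the cells were higher in the labelled knockdown. The summed level of 10 immediate early genes, which respond within minutes to handling, was 141 ± 4.41 FPKM in the controls (SD, n = 3). In the labelled knockdown it was 167 ± 1.69 FPKM. Of the 8 tested, 3 were called higher, beside 10.9% of all genes tested. These were JUN, EGR1 and IER2, at 0.47, 0.33 and 0.29 on the log2 scale (limma adjusted p = 0.000273, 0.00203 and 0.00863). The summed mitochondrial mRNAs ranged from 70369 to 74760 FPKM in the controls. They stood at 108068, 84716 and 73651 FPKM in labelled knockdown libraries 1 to 3, so library 3 lay within the control range. Of the 13 mitochondrial genes, 2 were called higher, beside 10.9% of all genes tested. MT-ND2 and MT-ND6 were these, at 0.45 and 0.42 on the log2 scale (limma adjusted p = 0.0487 and 0.0489). Of the 8 called replication genes, 4 had their lowest value in labelled knockdown 1, the library with the most mitochondrial mRNA, 2 in labelled knockdown 2 and 2 in labelled knockdown 3. Over all 50 replication genes the order was the reverse, with the lowest value in labelled knockdown 1, 2 and 3 for 9, 11 and 13 genes. It was in control 1, 2 and 3 for 7, 1 and 9 genes. The part of handling or of mitochondrial RNA in the lower replication genes was not tested.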

How the data were processed

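Poly(A)-selected and ribosomal RNA depleted preparations are both described in the labels' protocols, which do not say which gave the mRNA table. The authors deposited FPKM values per gene. HISAT2, StringTie, Cuffdiff and edgeR are named, without versions or roles, in the submitters' processing notes. Genome build, annotation and strand setting were not given in the sources used here. A second table, of long non-coding RNA, was not used here.

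Genes with a mean of at least 0.5 FPKM over 6 libraries were fitted as log2(FPKM + 1) with limma 3.58.1 (trended empirical Bayes, R 4.3.3; Python 3.11.15 for tables), 3 against 3 libraries without a block, and p-values were Benjamini-Hochberg adjusted over 10823 genes at 0.05. A change on this scale understates that of low genes. Whole fragments were recovered from the FPKM steps, giving 24558238 to 27351642 fragments per library. The length of each gene was taken as the shortest that gives whole fragments in every library. It was not read from an annotation. The scripts were tested on simulated data. Alternatives were a pseudocount of 0.1, no level filter, a filter of 5 FPKM, median scaling, quantile normalization, robust empirical Bayes, voom on the fragments, a replicate block and leaving out each library. Ratios within a library were added after seeing the data.

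The 50 genes and all lists were chosen with earlier results of these data known. Genes named with full values were SRSF3, called members, the smallest-p and the most abundant member of each role group, and the 4 called genes with the smallest p of each other list. The remaining members are named to account for all 50. RBL1, UMAD1 and the cell type genes stand outside that rule. Promoter windows came from a RefSeq table (GRCh38.p14), which matched 43 of the 50 by symbol.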

Additional observations from a re-analysis of the deposited data

How the results depend on the processing

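All 8 called replication genes stayed below 0 in every alternative run. Over these alternatives, 81 of their values kept their side of the threshold and 29 did not. POLE2 and WDHD1 were below the 5 FPKM filter and have no value there. Without a level filter, 4 replication genes were called lower, with 365 genes lower and 595 higher over the whole table. The median of all genes was then 0.0032. That median was 0.054 with the 5 FPKM filter, 0.016 with median scaling, 0.0035 with quantile normalization and 0.025 with voom. Without a filter more genes are tested; other causes were not tested. Quantile normalization moved the median of the 50 genes to -0.097 and MCM7 to -0.112, called 808 genes lower and 817 higher, and so lowered the share of calls that were higher from 64.8% to 50.3%. Voom called 760 lower and 1277 higher.

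Leaving out 1 library at a time gave 2 to 12 replication genes lower and 0 to 2 higher (MCM2 and POLD2 without labelled knockdown 3). Over all genes it gave 239 to 969 lower (the fewest without control 2, the most without labelled knockdown 3) and 387 to 1773 higher (the fewest without control 3, the most without labelled knockdown 3). Genes near 0 changed sign: FEN1 ranged from -0.023 to 0.029, ORC1 from -0.065 to 0.047, MCM7 from -0.036 to 0.056, MCM10 from -0.0024 to 0.12, CDT1 from -0.12 to 0.050 and POLA2 from -0.094 to 0.021.

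Libraries of the same number were not shown to be pairs: the correlations of their deviations were 0.078, 0.039 and 0.279, and control 1 correlated best with labelled knockdown 2 (0.153). With the replicate block 12 replication genes were lower and 1 higher: CDC7, DNA2, ORC3 and TOPBP1 joined the 8, and POLD2 was higher. Calls over all genes went up too, to 835 lower and 1488 higher. Depth limits POLE2 most, with 162 to 248 fragments per library.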
